A study of Rattus norvegicus with 15 samples.

Results

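The wide tiled regions described here are 375 runs of 20 or more probes on the rat tiling array of the study, out of 17668 runs in all. A run is a stretch of neighbouring probes of a chromosome that are joined wherever the free gap between them is at most 500 bp. The wide runs held 21118 of the array's 172669 probes (12.2%), with 20 to 279 probes each and a median of 39. They spanned 3111 to 50445 bp, with a median of 7515 bp, and covered 4014336 bp of the rn4 assembly of the rat genome. The rule uses probe positions and no measured value, but it was proposed with earlier results of these data known. Every wide run had a value on every array and entered the fits, together with 16407 runs of 3 to 19 probes. Just inside and just outside the size rule, the 49 runs of 20 or 21 probes had a median log2 ratio of -0.07 and the 72 runs of 18 or 19 probes a median of -0.14.

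DNA methylation in mammals falls mostly on cytosines that precede a guanine, the CpG dinucleotides. CpG-dense stretches such as many promoters are usually free of methylation, while most CpGs between them are methylated, so the level can change sharply at the edge of a CpG-dense stretch. Methylated DNA immunoprecipitation (MeDIP) recovers sheared fragments with an antibody against 5-methylcytosine. A fragment is longer than the spacing of the probes used here, so neighbouring probes can report on the same fragments, and recovery also depends on how many CpGs a fragment holds.

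The study measured peripheral blood DNA of male Sprague Dawley rats, 20 weeks old, with MeDIP DNA in Cy5 and input DNA in Cy3 on the same array. Controls were injected with buffer and raised on distilled water. The other rats were made diabetic by intravenous streptozotocin, which destroys insulin-producing beta cells, at 45 mg/kg. The DR model group, a model of diabetic retinopathy, then received distilled water only. The CaD group received calcium dobesilate, a drug for the small vessels of the retina, at 0.25 g/kg per day, and the LTF group received Luo-tong formula at 2 g/kg per day, both together with insulin at 1.5 IU per day. A further group received another herbal formula, called the other formula here, for which the labels used here give neither dose nor insulin. Drug and insulin cannot be told apart, because the DR model rats had neither. Each group had 3 biological replicates with 1 array each, taken from groups that the labels put at 10 rats for all but the other formula, and p-values measure the spread between these rats and their arrays. Blood is a mixture of cell types, so a changed share of a cell type and a change within cells cannot be told apart.

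All values are log2 ratios of the MeDIP signal over the input signal, with each array centred on its median. A value of 0 is the level of that array's median probe, and a value of 1 is a ratio 2 times as high. The ratio fell steeply with probe length, which the array design sets between 45 and 60 nucleotides: among the probes of wide runs it averaged 0.21 at 45 nucleotides and -0.95 at 60. Levels are therefore compared between groups at the same probes, and comparisons between runs or between places in a run are descriptions in which probe length moves along. Between 77.6% and 90.0% of an array's probes had MeDIP signal well above background, and between 91.9% and 96.8% had such input signal. No gene is named and no probe sequence is shown, since the positions are on rn4 while the gene tables used here belong to a later assembly, so the labelled tissue was not checked against marker genes.

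The arrays were read in 6 scans, told apart by their time stamps, and these bear on every comparison between groups. The 3 LTF arrays made up scan 4 alone, so LTF and its scan cannot be told apart. The other formula arrays shared scan 3 with CaD replicate 3. Control replicates 2 and 3 shared scan 5 with DR model replicate 1, and DR model replicate 3 shared scan 6 with CaD replicates 1 and 2. Control replicate 1 and DR model replicate 2 were each scanned alone. DR model replicate 3 stood apart from the other DR model arrays in the spread of its log2 ratios, with an interquartile range of 1.22 against 1.60 and 1.52. Results that change without an array are given both ways.

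Wide runs lay under 22 chromosome names, unplaced sequence included, with 57 on chromosome 1 and 39 on X. They were not scattered evenly: runs under 20 kb apart formed 130 neighbourhoods, of which 40 held a single run. The fullest neighbourhood, chr1:116020987-116096510, held 10. Probes of different runs in a neighbourhood therefore sample the same stretch of chromosome. Across the 245 pairs of adjacent runs under 20 kb apart, run means correlated at 0.80, a description over runs that share arrays and probe composition.

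Wide runs lay lower than short ones and were built from longer probes. The mean over the 15 arrays ranged from -1.68 to 0.76 across the 375 runs, with a median of -0.24, against a median of -0.03 for runs of 3 to 19 probes. Only 32.9% of the probes of wide runs had the shortest length of 45 nucleotides, against 50.8% elsewhere, and 21.1% had the full 60, against 12.7%. With each probe centred within its length, the medians were -0.04 for wide and -0.05 for short runs. Across the 375 runs the run mean correlated with mean probe length at -0.84 and with the number of probes at 0.06.

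Chromosome X showed the same pattern. Its 39 wide runs had a median of -0.77, against -0.13 for the 336 wide runs elsewhere, and their mean probe length had a median of 55.2 nucleotides, against 50.2. Centred within probe length, the medians were -0.10 and -0.03.

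The extremes of level show how far whole runs differed. The run with the highest mean was chr18:16250384-16253889, with 20 probes and a mean of 0.76. The control arrays read 0.85, 0.75 and 0.90 there and the LTF arrays 0.70, 0.75 and 0.71. The next highest, chr1:95559932-95565971 with 28 probes, averaged 0.71. Both lay above 0 on every array. The lowest pair adjoined each other: chr1:116047647-116051220 averaged -1.68 over 21 probes and chr1:116042223-116047073 averaged -1.61 over 27 probes. Their mean probe lengths were 57.0 and 56.2 nucleotides, against 47.4 and 47.3 in the highest pair. The 3 runs with the most probes lay far apart in level. The run chr4:58107762-58158206, with 279 probes over 50445 bp, averaged 0.15. The run chr1:135241889-135286510, with 248 probes, averaged -0.26, and chr1:115312109-115354565, with 242 probes, averaged -1.44.

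Within a run the level rose and fell over about 1 kb rather than holding at a plateau. Each run was split from its lower coordinate into windows of 5 or 6 probes, 4087 in all and 4 to 55 per run. Between the lowest and the highest window of a run lay a median of 1.30 log2 units, and 267 of 375 runs had a range above 1. Windows on both sides of 0 occurred in 269 runs, while 90 runs lay below 0 in every window and 16 above 0 in every window. The largest step between adjacent windows had a median of 0.94 and exceeded 1 in 171 runs. Over 10 equal parts of a run from its lower to its higher coordinate, the mean level stayed between -0.30 and -0.23. Counted in probes from the nearest end, it averaged -0.21 at the outermost probe, -0.38 at probe 5 and -0.25 at probe 10, and 0.10, -0.07 and 0.02 with levels centred within probe length (750 probes at each place).

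**Figure D1:**
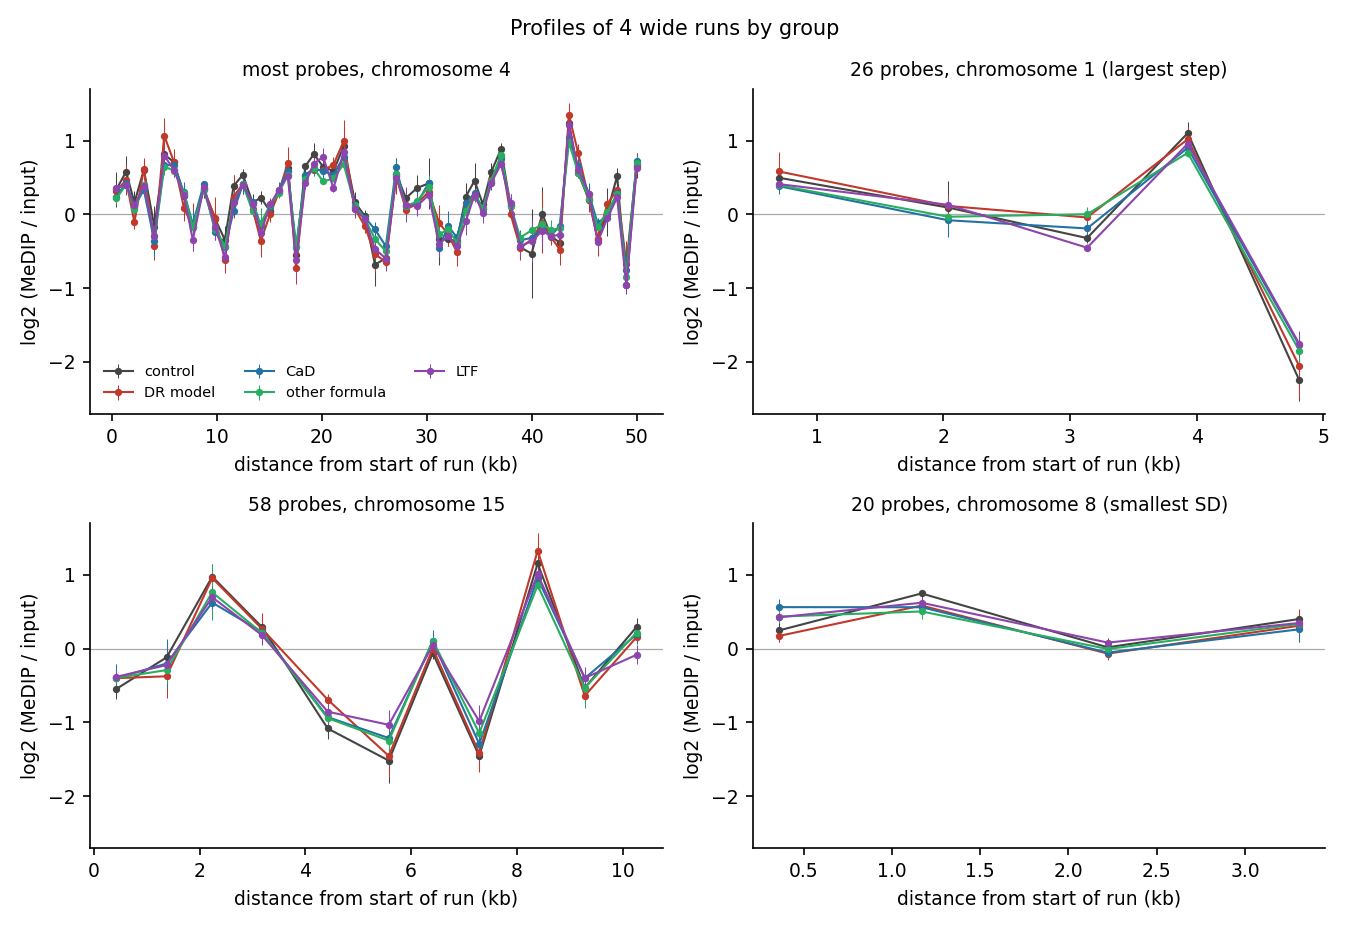
Mean log2(MeDIP/input) of windows of 5 or 6 probes along 4 wide runs, against the distance of the window's middle from the start of the run in kb. Lines are the 5 groups, points are means of 3 arrays and bars are SDs; the groups follow the same rises and falls, and averaged over all arrays, the chromosome 1 run drops from 0.96 to -1.94 between its last 2 windows while the chromosome 8 run stays between -0.01 and 0.60.

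The largest step lay in chr1:202912726-202917967, a run of 26 probes. Its 5 windows averaged 0.45, 0.05, -0.20, 0.96 and -1.94 in order, so the last window, chr1:202917105-202917967, lay 2.90 below the one before it. Every group showed that drop, from 1.1 to -2.25 in controls and from 0.96 to -1.76 in LTF. The probes of the window before the drop averaged 45.0 nucleotides and those after it 54. The next largest step was 2.32, in chr15:99822751-99833477 with 58 probes, between a window at -1.26 and its neighbour at 1.06. That run changed sign repeatedly, from -0.24 to 0.80 between its windows 2 and 3 and back to -0.90 by window 5. At the other end stood chr8:71549024-71552699, whose 20 probe means had an SD of 0.37 along the run, and chr17:7350980-7360694, whose 54 had an SD of 0.40. The largest SD along a run, 1.14, belonged to chr1:115964851-115970185. Its windows 3 and 4 stood at -2.09 and -0.24, and their probes averaged 60.0 and 55.7 nucleotides, so the lower window had the longer probes.

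These profiles belonged to the runs and were shared by all rats. For each run the window means of pairs of arrays were correlated along the run, over a median of 7 windows. The median over the 375 runs was 0.93 for arrays of the same group and 0.91 for arrays of different groups. The lowest run had 0.29 within groups, and the lower quartile was 0.89. As descriptions over windows on shared arrays these carry no test. They set the scale for the group differences below, which were small beside the relief along a run.

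Neighbouring probes shared part of their level, over about 1 kb. Over the 375 runs, the mean of a probe correlated with that of the next probe, a median of 163 bp on, at 0.49. The correlation fell to 0.31 at 5 probes apart (920 bp), to 0.25 at 10 (1881 bp) and stayed at 0.24 at 20 (3770 bp). Part of this is the level of the whole run. After the run's own mean was taken off, the values were 0.30 for the next probe, 0.13 at 3 probes apart (540 bp), 0.05 at 5 and 0.01 at 7 (1304 bp). Probe length itself correlated between neighbours at 0.36 and still at 0.30 at 5 probes apart. With levels centred within probe length the correlation of neighbours was 0.35, and 0.10 at 20 probes apart. Runs of 3 to 19 probes gave 0.44 for neighbours.

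**Figure D2:**
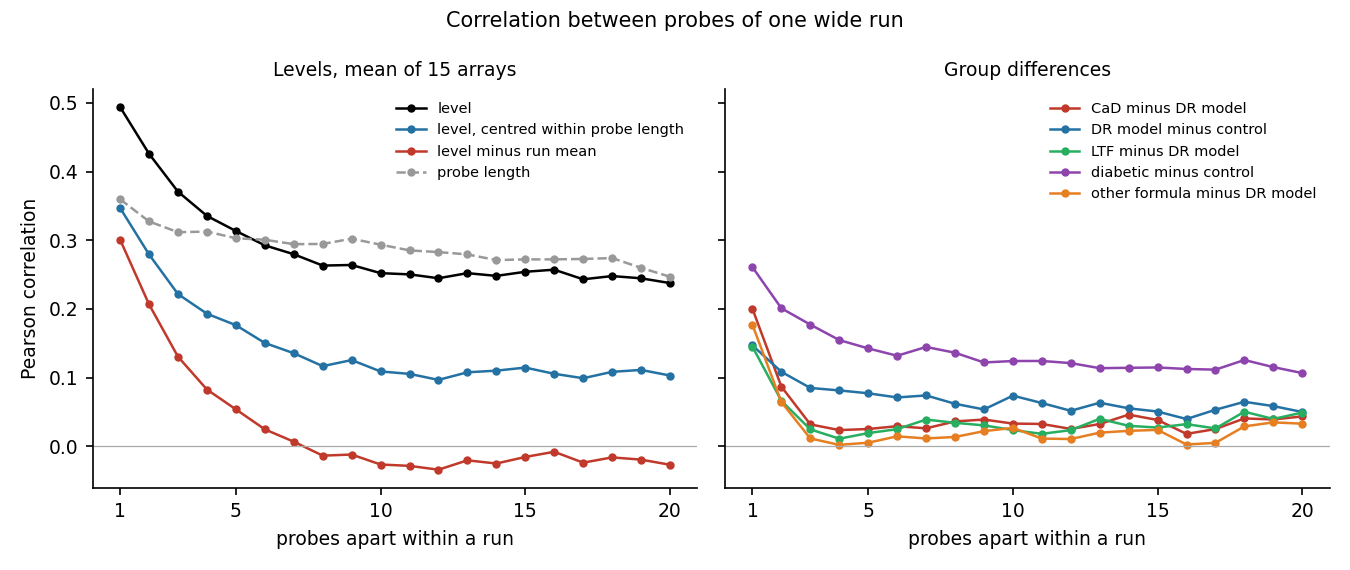
Pearson correlation between probes of the same wide run against how many probes apart they lie, 1 to 20, where 1 is the next probe. The left panel shows levels (mean of 15 arrays), from 0.49 at 1 probe to 0.24 at 20, and near 0 from 7 probes on once the run mean is taken off; the right panel shows differences between groups, from 0.26 down for the 4 diabetic groups against control and from 0.14 to 0.20 down for the other comparisons.

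On single arrays the correlation of neighbours was 0.45 ± 0.055 (SD, n = 15), from 0.39 to 0.59. The share of probe variance that lay between runs was 25.2% ± 3.4 (SD, n = 15), from 20.9% to 33.5%. Controls averaged 29.1% ± 4.49 (SD, n = 3), the DR model 24.2% ± 3.00 (SD, n = 3), CaD 24.0% ± 1.67 (SD, n = 3), the other formula 25.8% ± 2.84 (SD, n = 3) and LTF 22.8% ± 2.35 (SD, n = 3). Control replicate 1, at 33.5%, was the highest array and control replicate 2, at 24.5%, lay among the others, so the groups overlapped. The 12 arrays of diabetic rats differed from the controls by -4.85 percentage points in a two-sided exact permutation test (p = 0.0264, adjusted p = 0.132 over 15 such tests). The matching tests of the neighbour correlation (-0.08, p = 0.0242) and of the SD of run means (-0.10, p = 0.0110) had the same adjusted value of 0.132. None of the 4 comparisons of single groups could pass, since an exact permutation test of 3 arrays against 3 cannot go below p = 0.1.

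Group differences gave lower correlations between neighbours than levels did. A level is a mean over 15 arrays, while a difference is taken between means of groups of 3 arrays. Levels and differences are therefore not on the same footing, and whether differences are more local than levels was not tested. For the 4 diabetic groups against control, the difference at a probe correlated with that at the next probe at 0.26 and at 20 probes apart at 0.11. The comparisons of single groups gave 0.14 to 0.20 for neighbours. For adjacent runs under 20 kb apart, the differences between the diabetic groups and control correlated at 0.66 over the 245 pairs, and those between LTF and the DR model at 0.49. A run mean averages at least 20 probes, so these values are not on the same footing as those of single probes. The spread between replicates was lower in runs with more probes. The median SD within groups was 0.15 for runs of 3 or 4 probes and 0.11 for runs of 5 to 9. It was 0.081 for runs of 20 to 39 and 0.068 for runs of 40 or more, and 0.14 for single windows of wide runs. These are different sets of probes, and the part of probe number in the spread was not tested.

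Between groups, the medians over the 375 runs lay close together, from -0.25 in the control and LTF groups to -0.20 in the CaD group. The test of single runs was limma's moderated test on run means with Benjamini-Hochberg adjustment over all 16782 runs, at an adjusted p under 0.05. With the DR model against control, limma called 0 wide runs, beside 0% of all runs. At an unadjusted p under 0.05 there were 26 wide runs (6.93%, beside 12.7% of all runs). Of these, 19 were higher in the DR model (5.07%, beside 9.78% of all runs). For CaD against the DR model limma again called 0 wide runs (0% of all runs), with 25 at an unadjusted p under 0.05 (6.67%, beside 14.98% of all runs). For the other formula it called 0 (0% of all runs), with 15 at an unadjusted p under 0.05 (4%, beside 15.1% of all runs). For LTF limma called 0 wide runs, beside 0.9% of all runs (0.238% higher and 0.661% lower), with 28 at an unadjusted p under 0.05 (7.47%, beside 19.4% of all runs). Without DR model replicate 3, limma called 11 wide runs for CaD (2.93%, beside 8.51% of all runs), 8 for the other formula (2.13%, beside 6.76%) and 11 for LTF (2.93%, beside 7.79%).

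The wide runs named for those comparisons did not pass. They were named only from runs where the arrays of both sides did not overlap, so that separation is not a result. Among wide runs higher in the DR model than in control and with no overlap between the arrays, chr1:116085528-116091135 had the smallest p. The lowest limma adjusted p of any wide run in that comparison was 0.149. Its control arrays read -1.57, -1.77 and -1.82 and its DR model arrays -1.54, -1.42 and -1.24. The groups did not overlap, and the difference was 0.32 ± 0.088 (SE; limma adjusted p = 0.166). In the other direction stood chr7:114259954-114263552, at 0.46, 0.44 and 0.42 in controls and 0.32, 0.28 and 0.27 in the DR model (difference -0.16, limma adjusted p = 0.262). For LTF the strongest were chr10:87545603-87549358, lower by a difference of -0.23, and chrX:154167104-154171125, higher by 0.31, both at a limma adjusted p of 0.0961. The run chr19:25634502-25640028 was named in 2 comparisons. Its DR model arrays read 0.25, 0.19 and 0.16, its CaD arrays 0.06, 0.06 and 0.00 and its LTF arrays 0.02, -0.04 and 0.05. All 6 treated arrays lay below all DR model arrays, with limma adjusted p of 0.245 for CaD and 0.121 for LTF.

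The contrast of the 4 diabetic groups with control, which all share streptozotocin, called more. limma called 27 of 375 wide runs (7.20%), beside 8.71% of all runs, so wide runs were called about as often as runs in general. Of the 27, 25 were higher in the diabetic groups, where 6.35% of all runs were called higher, and 2 were lower, where 2.36% of all runs were. The median size of the 27 differences was 0.29, and they ranged from -0.18 to 0.41. In each of the 27, the means of the 4 diabetic groups lay on the same side of the control mean. The runs were selected on the mean of these 4 groups, so this agreement is not a further result. The same holds for windows that share the sign of their called run. The called runs were low ones: 25 had a mean below 0, with a median of -0.91 over the 27. They came from 19 neighbourhoods, and 4 lay on X, of 39 wide runs there.

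The number of calls changed with the arrays included and with the treatment of the scans. Without control replicate 3, 1 wide run was called, and without DR model replicate 2, 55 were. With the scan as a random block 3 of the 27 were called, within scan day 1 alone 0, and within scan day 3 alone 24, of which 17 were among the 27. Scan day 1 held control replicate 1 only, with DR model replicate 2, CaD replicate 3 and the 3 other formula arrays, so its lone control is assumed to vary like the other groups. Scan day 3 held control replicates 2 and 3 with DR model replicates 1 and 3 and CaD replicates 1 and 2. Each within-day contrast therefore sets control against the diabetic groups present, without LTF on either day. Quantile normalization, which gives every array the same distribution, called 5, of which 4 were among the 27. The split by direction also moved: 3 of those 5 were higher in the diabetic groups, as were 6 of 11 with the authors' deposited value table (5 among the 27), all 26 with normexp background correction (12 among the 27), 64 of 88 with loess (26 among the 27) and 15 of 19 with levels centred within probe length (16 among the 27). The control and DR model arrays had wider log2 distributions (mean interquartile ranges 1.46 and 1.45) than the treated arrays (1.24 to 1.28), and the part of this spread in the calls was not tested beyond that setting.

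**Figure D3:**
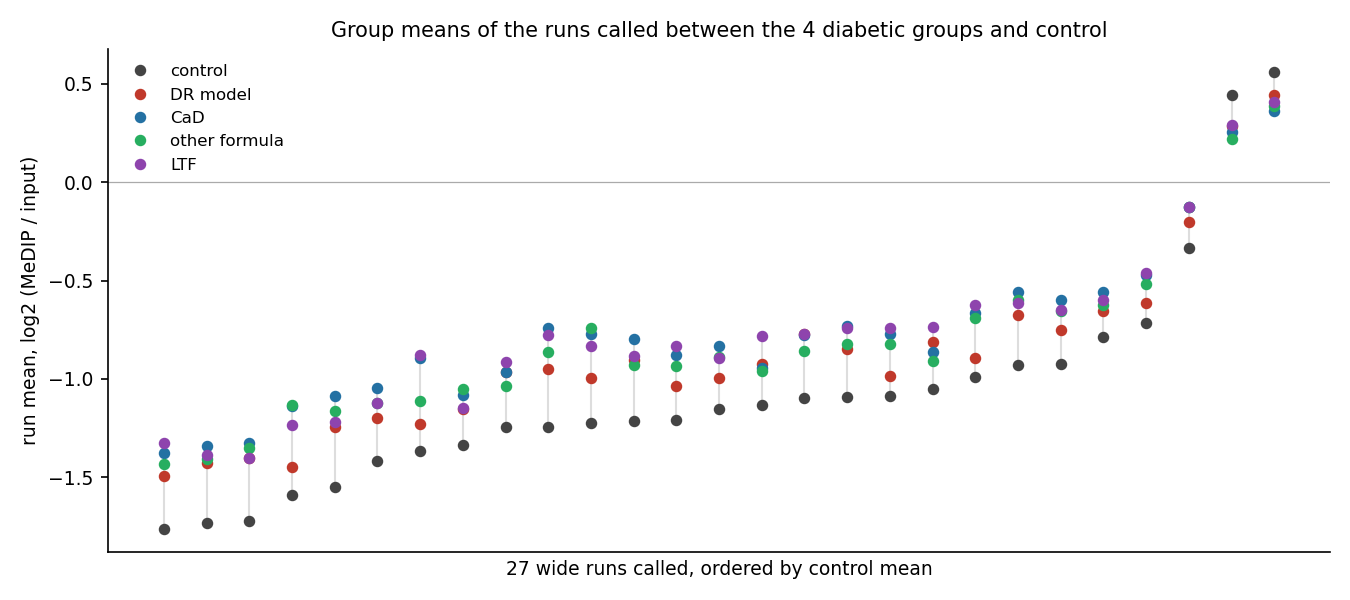
Group means of the run mean log2(MeDIP/input) in the 27 wide runs called between the 4 diabetic groups and control, ordered along the x axis by control mean. Points are means of 3 arrays. In 25 runs all 4 diabetic groups lie above the control point. In the 2 runs with control means of 0.44 and 0.56 they lie below it. The runs were selected for a difference between the mean of these groups and control.

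The run with the smallest p was chr1:116035327-116040620, with 25 probes. Its control arrays read -1.29, -1.18 and -1.20, for a mean of -1.22 ± 0.055 (SD, n = 3). The DR model arrays read -1.03, -1.13 and -0.83, CaD -0.70, -0.62 and -1.0, the other formula -0.73, -0.71 and -0.78, and LTF -0.78, -0.93 and -0.80. All 12 diabetic arrays lay above all 3 control arrays. Runs named for this contrast were taken from those without overlap, so that separation is not a further result. The difference was 0.39 ± 0.074 (SE; limma adjusted p = 0.00832). With the scan as a random block the difference was 0.38 (adjusted p = 0.0274). It was 0.12 with normexp (adjusted p = 0.0603) and 0.27 with quantile normalization (adjusted p = 0.0542), so it passed with neither. The adjusted p was 0.0509 with every probe left out that was under background in either channel on any array. All 5 of its windows were higher in the diabetic groups, by 0.15 to 0.56. The smallest of these, 0.15, was in the only window above 0, at 0.31.

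Among wide runs with no overlap between control and diabetic arrays, the next smallest p was in chr2:12255210-12268869, with 71 probes in 14 windows. Its control arrays read -0.98, -0.86 and -0.94, and its DR model arrays -0.72, -0.77 and -0.53. The treated arrays lay between -0.72 and -0.46. The lack of overlap with the controls was the rule by which this run was named, and is not a result. The difference was 0.32 ± 0.062 (SE; limma adjusted p = 0.00914). It was 0.30 with the scan as a random block (adjusted p = 0.0456) and 0.12 with normexp (adjusted p = 0.0388). The adjusted p was 0.0506 without probes under background and 0.0512 without control replicate 3. All 14 windows were higher in the diabetic groups, and 6 passed on their own. The difference was not even along the run. It reached 0.59 in window 2, where the run stood at -1.45, and was smallest, at 0.02, in a window before the last 2. In the last 2 windows, which stood at 0.43 and 0.38, it was 0.14 and 0.04.

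The runs that were lower in the diabetic groups were high ones. Both were named under the rule that control and diabetic arrays do not overlap, so their separation is not a further result. In chr7:114259954-114263552 the controls, at 0.46, 0.44 and 0.42, lay above all 12 diabetic arrays, of which the highest was an LTF array at 0.33 and the lowest an other formula array at 0.19. The difference was -0.18 ± 0.043 (SE; limma adjusted p = 0.0218), and the adjusted p was 0.0699 without control replicate 3. The difference was -0.17 with the scan as a random block (adjusted p = 0.105) and -0.06 with normexp (adjusted p = 0.225). In chr5:167175724-167185428, with 49 probes, the difference was -0.16 ± 0.047 (SE; limma adjusted p = 0.0482), with an adjusted p of 0.161 without control replicate 3. It was -0.15 with the scan as a random block (adjusted p = 0.172), -0.13 with quantile normalization (adjusted p = 0.103) and -0.04 with normexp (adjusted p = 0.463). The cause of the smaller differences with normexp was not tested. Its 9 windows were all lower in the diabetic groups, with differences of -0.30 to -0.04.

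A stretch of chromosome 1 held 8 of the 27 called runs, and was singled out after its values were seen. It runs over chr1:115957316-116096510 and holds 15 wide runs in 2 neighbourhoods. Among all wide runs 7.20% were called, and among all runs 8.71%. All 15 had a positive difference between the diabetic groups and control, from 0.13 to 0.41, as had 225 of the 375 wide runs (60%). Low windows of wide runs leaned the same way in general, as described below. All 15 were also low, with means of -1.68 to -0.64, and had long probes, averaging 55.4 to 57.9 nucleotides. Among them chr1:115987924-115994576 had the largest run difference, 0.41 (limma adjusted p = 0.00912), with controls at -1.28, -1.17 and -1.27. The DR model arrays there read -0.87, -1.20 and -0.79, so DR model replicate 2 fell among the controls. The runs share their rats, arrays and neighbourhood, so they are not 15 separate observations. The pair of runs with the lowest levels lies inside this stretch.

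Any difference among the 5 groups was called by limma's F test in 3 wide runs, 0.8% of them, beside 3.46% of all runs. They were chr1:116035327-116040620 (adjusted p = 0.0330), chr1:115987924-115994576 (adjusted p = 0.0401) and chr2:12255210-12268869 (adjusted p = 0.050, just under the threshold). Each is also among the 27, with controls as the lowest group. None was called with the scan as a random block, where the adjusted p was 0.199, 0.252 and 0.342 in the same order, and without control replicate 3 the 3 values were 0.0841, 0.115 and 0.135. With normexp they were 0.0878, 0.0407 and 0.0999, and with quantile normalization 0.131, 0.142 and 0.171.

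**Figure D4:**
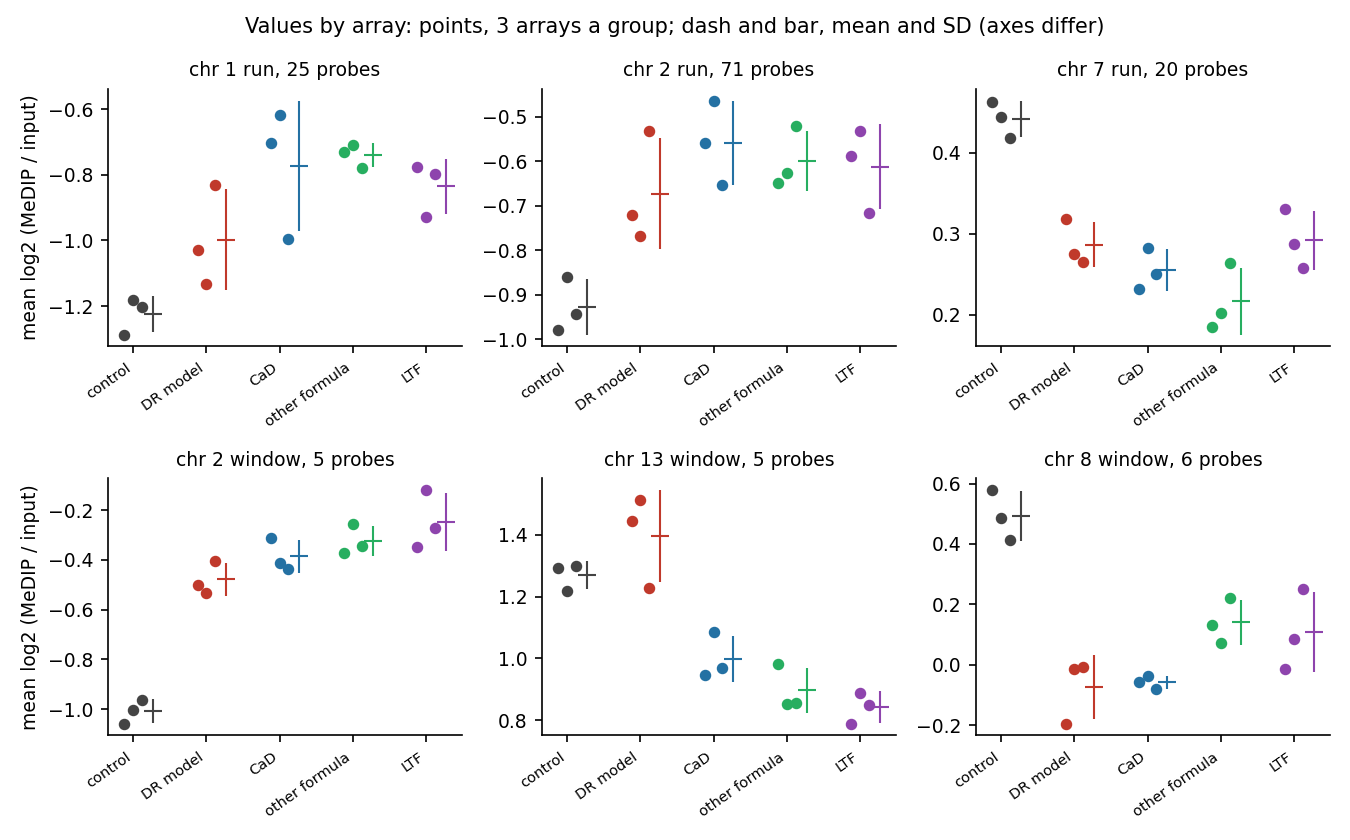
Mean log2(MeDIP/input) on each of the 15 arrays for 3 wide runs and 3 windows of wide runs, by group; points are arrays, dashes with bars are means and SDs, and the y axes differ between panels. In the chromosome 1 and 2 panels the 3 control arrays lie below all others, for chromosomes 7 and 8 they lie above all others, and in the chromosome 13 window the control and DR model arrays lie above the treated arrays.

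At the finer scale of windows, the same limma test ran on 28213 windows of all runs. For the diabetic groups against control it called 277 of the 4087 windows of wide runs (6.78%), beside 6.87% of all windows, and 27 of these with the scan as a random block. Of the 277, 184 were higher in the diabetic groups, where 4.72% of all windows were called higher, and 93 were lower, beside 2.14%. That split depended on the scaling. The authors' deposited value table gave 172 higher and 270 lower (142 of the 277 among them), quantile normalization 50 higher and 86 lower (111 among them) and normexp 251 higher and 54 lower (114 among them). Loess gave 449 higher and 292 lower (261 among them) and centring within probe length 110 higher and 145 lower (195 among them). Without control replicate 3 the count was 53 and without DR model replicate 2 it was 540. They were spread over 167 runs, and 52 had a called window next to them. The most in a run was 7, of the 48 windows of chr1:115312109-115354565, all 7 higher in the diabetic groups. In the 27 called runs, 184 of 192 windows had the sign of the run. A run's mean is made of its windows, so calling the run in part sets that sign. Of the windows in these runs 47 were called, so 230 called windows lay elsewhere, in 145 runs that were not called as a whole. There were 11 runs with windows called in both directions. Windows at the ends of runs were called at 8.27% and inner windows at 6.44%, a description with no test.

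The direction of the difference went with the level of the window. When the 4087 windows were ordered by their mean over all arrays and cut into 5 equal classes, the lowest class, at a mean of -1.27, had a median difference of 0.17 between the diabetic groups and control, with 87 windows called higher and 3 lower. The middle class, at -0.23, had a median difference of 0.02, with 27 higher and 16 lower. In the highest class, at 0.63, it was -0.10, with 1 called higher and 40 lower. LTF against the DR model had the same slope, from 0.10 in the lowest to -0.10 in the highest class, and so had CaD, from 0.13 to -0.11, and the other formula, from 0.08 to -0.12. These share the DR model arrays. For the DR model against control the medians were 0.10 in the lowest class and -0.01 in the highest. The mean over all arrays contains the arrays compared, and low windows are also dim. MeDIP spots were well above background for 71.5% of spots in the windows called higher, 92.5% in those called lower and 84.7% in all windows of wide runs. The narrower distributions of the treated arrays, given above, move with this slope, and their part in it was not tested.

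**Figure D5:**
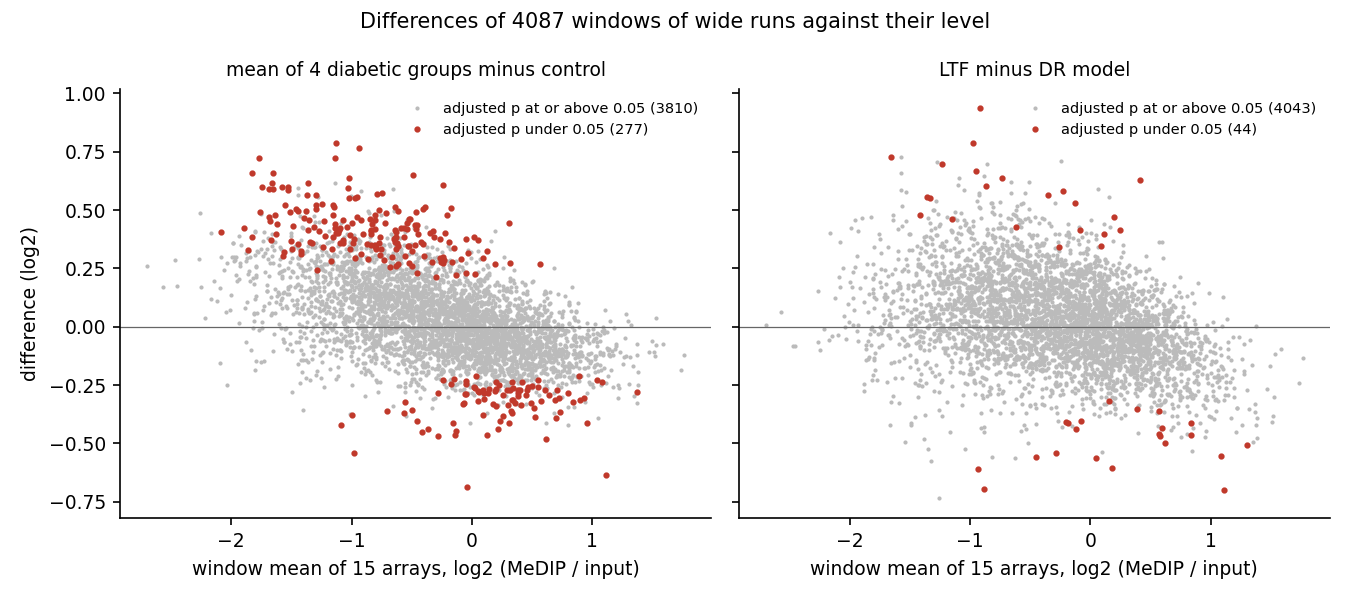
Difference between groups in 4087 windows of wide runs (log2, y axis) against the mean level of the window over 15 arrays (log2, x axis), for the 4 diabetic groups minus control (left) and LTF minus DR model (right). Red points passed limma's adjusted p under 0.05 (277 and 44 windows); low windows lean above 0 and high windows below it in both panels.

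The window with the smallest p was chr2:12280065-12280809, 5 probes in the next wide run after the chromosome 2 run above. The control arrays read -1.06, -1.0 and -0.96 and the DR model arrays -0.50, -0.53 and -0.40. CaD read -0.31, -0.41 and -0.43, the other formula -0.37, -0.26 and -0.34, and LTF -0.35, -0.12 and -0.27. All 12 diabetic arrays lay above the controls. The DR model arrays lay below all other formula and LTF arrays, while CaD overlapped each of the other diabetic groups. The difference was 0.65 ± 0.061 (SE; limma adjusted p = 0.000444), 0.00574 with the scan as a random block and 0.00503 without control replicate 3. With normexp it was 0.24 (adjusted p = 0.00337). Between control and the diabetic groups present, it was 0.63 within scan day 1 (adjusted p = 0.0390), where control replicate 1 was the lone control and was assumed to vary like the other groups, and 0.58 within scan day 3 (adjusted p = 0.00791). All 5 probes were higher in the diabetic groups, by 0.21 to 1.43. The probe with 1.43 was above background in MeDIP on 9 of 15 arrays, and without it the difference was 0.45 (adjusted p = 0.00300). The DR model alone differed from control by 0.53 (limma adjusted p = 0.0829), which did not pass.

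Most of the run around that window was not called. The run, chr2:12272186-12292337 with 102 probes in 20 windows, was not called as a whole by the F test (adjusted p = 0.242). The windows on either side, at 0.44 and 0.53, were also called higher (adjusted p = 0.0380 and 0.0340), so the stretch chr2:12279236-12281644 held 3 called windows in a row. Next to this stretch, windows 7 and 11 differed by 0.05 and 0.06. Of the other windows of the run, 1 was called, window 17 at 0.22 (adjusted p = 0.0460), while windows 4 and 12 differed by 0.35 and 0.32 without passing. Relative to its own run, the central window stood at a mean of -0.23 in controls and 0.15 in the DR model. CaD stood at 0.20, LTF at 0.45 and the other formula at 0.31, and the F test of that quantity passed (limma adjusted p = 0.00763).

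Of the named windows that were lower in the diabetic groups, chr8:54455664-54456567, the first of 18 windows of a run with 94 probes, was above background throughout. All 6 of its probes were above background in both channels on all 15 arrays, with 2 spots of the first probe left out as outliers. The control arrays read 0.58, 0.49 and 0.41, and the DR model arrays -0.20, -0.01 and -0.01. CaD read -0.06, -0.04 and -0.08, the other formula 0.13, 0.07 and 0.22, and LTF -0.01, 0.09 and 0.25. Controls lay above every other array. The DR model differed from control by -0.57 ± 0.085 (SE), the smallest p of any window lower in the DR model, yet the limma adjusted p was 0.0829, and with normexp the difference was -0.26 (adjusted p = 0.135). The mean of the 4 diabetic groups differed by -0.46 (limma adjusted p = 0.00438). The gap was smallest at the first probe of the run, -0.11, and largest at the sixth, -0.83. The next window, at -0.34, was called too (adjusted p = 0.0300).

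The window chr2:218968112-218968795 was called lower as well (diabetic groups against control -0.64, limma adjusted p = 0.00419). Its control arrays read 1.58, 1.61 and 1.66 and its LTF arrays 0.71, 0.59 and 0.85. CaD averaged 0.89 and the other formula 0.91. The DR model lay nearer to the controls, with a mean of 1.41, and its replicate 2, at 1.65, fell within the control range. Probe 3 of the window was above background in MeDIP on 3 arrays and in input on 1, and probe 2 in input on 5. Without such probes the difference was -0.30 and the adjusted p 0.116, and with normexp they were -0.16 and 0.0408.

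For LTF against the DR model, limma called 44 windows of wide runs (1.08%), beside 0.964% of all windows. There were 22 in each direction, beside 0.347% of all windows called higher and 0.617% called lower. They lay in 41 runs, and no called window had a called neighbour. Without DR model replicate 1, 0 windows were called, without DR model replicate 2, 2 were, and without DR model replicate 3, 381 were. With the scan as a random block there were 0. For CaD limma called 0 windows (0% of all windows), with 623 of 4087 at an unadjusted p under 0.05 (15.2%, beside 15.6% of all windows). For the other formula limma called 0 (0% of all windows), with 615 at an unadjusted p under 0.05 (15.05%, beside 15.96% of all windows). For the DR model against control limma called 0 (0% of all windows), with 463 at an unadjusted p under 0.05 (11.3%, beside 11.4% of all windows). Without DR model replicate 3, CaD had 355 (8.69%, beside 8.38% of all windows) and the other formula 296 (7.24%, beside 7.38%).

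The LTF window lower with the smallest p was chr13:101280318-101281150, where every probe was above background in both channels on all 15 arrays. Its DR model arrays read 1.45, 1.51 and 1.23 and its LTF arrays 0.79, 0.89 and 0.85, which do not overlap. The difference was -0.55 ± 0.082 (SE; limma adjusted p = 0.0200), with an adjusted p of 0.0699 without DR model replicate 1 and 0.402 with the scan as a random block. Controls read 1.29, 1.22 and 1.30, CaD 0.94, 1.08 and 0.97, and the other formula 0.98, 0.85 and 0.86. All 9 treated arrays thus lay below all 6 arrays of controls and DR model. CaD differed from the DR model by -0.40 (adjusted p = 0.131) and the other formula by -0.50 (adjusted p = 0.0867), neither past the threshold. The window is the peak of its run of 41 probes: its neighbours stood at 0.01 and 0.10 and differed between LTF and the DR model by -0.08 and 0.02.

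The LTF window higher with the smallest p, chrX:154224324-154225596, was made of dim probes. Its DR model arrays read -1.09, -1.27 and -1.15 and its LTF arrays -0.01, -0.41 and -0.29 (difference 0.94 ± 0.121 SE, limma adjusted p = 0.0146, and 0.402 with the scan as a random block). All 5 probes are 60 nucleotides long. In MeDIP they were above background on 0, 2, 2, 0 and 0 of 15 arrays and in input on 0, 3, 8, 9 and 5. The measured ratios there are ratios of signals that were mostly not well above background. With normexp the difference was 0.15 (adjusted p = 0.101). With probes under background left out, the window has no value. More widely, 9 of the 22 windows called lower in LTF had all probes above background in both channels on all arrays, against 2 of the 22 called higher and 26.8% of all windows of wide runs.

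To ask where in a run the groups differed, each window was also taken relative to the mean of its own run. limma's F test called 134 of 4087 (3.28%), beside 1.83% of 21110 windows of all runs long enough to have windows of their own. A wide run has more windows, and each window is a smaller part of its own mean, so the rates are not on equal terms. The called windows lay in 104 runs and 71 of them were also called in the F test of window levels, which called 138 (3.38%), beside 3.38% of all windows. For the diabetic groups against control, 145 windows were called (3.55%), beside 2.21%, with 59 higher (1.02% of all) and 86 lower (1.19% of all). For LTF against the DR model there were 102 (2.5%), beside 1.75%, with 47 higher (0.815% of all) and 55 lower (0.933% of all). Without control replicate 3 the first count was 41, and without DR model replicates 1, 2 and 3 in turn the second was 19, 19 and 433. For the DR model against control limma called 0 (0% of all), with 472 at an unadjusted p under 0.05 (11.5%, beside 8.38% of all). For CaD it called 0 (0% of all), with 733 at an unadjusted p under 0.05 (17.9%, beside 16.1% of all). With the scan as a random block the counts were 0 for the F test, 4 for the diabetic groups and 0 for LTF.

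The other formula had 2 windows called relative to their runs, beside 0.0284% of all windows (0.00947% higher, 0.0189% lower), and both were lower and lie on chromosome 18. In chr18:57371000-57371698 the level above the run mean was 1.13, 1.24 and 0.92 on the DR model arrays and 0.48, 0.37 and 0.40 on the other formula arrays. The groups did not overlap, and the difference was -0.68 (limma adjusted p = 0.0228). Controls, at 1.03, 0.99 and 1.23, lay with the DR model, and CaD (mean 0.58) and LTF (mean 0.57) lay with the other formula. Its probe 3, at 2.24 in controls and 0.32 in the other formula, was above background in input on 0 arrays. Its probe 5, above background throughout, stood at 1.41 in controls, 1.55 in the DR model and 0.36 to 0.51 in the treated groups. With dim probes left out, the F test of the window relative to its run still passed (adjusted p = 0.0190). In chr18:57663615-57664324 the level above the run mean was 0.34 in the DR model and -0.06 with the other formula, a difference of -0.40 (adjusted p = 0.0228). All 5 of its probes were above background on all arrays. Both calls were lost with the scan as a random block, and without DR model replicate 1 or 2, where 0 windows were called. Without DR model replicate 3, 374 windows were called.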

How the data were processed

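MeDIP DNA (Cy5) and input DNA (Cy3) of 15 rats were measured on 15 arrays. Per the file headers, Feature Extraction 11.0.1.1 background-subtracted and dye-normalized the processed intensities, and the log10 ratios in the same files are of red over green. The authors' deposited value table, used only as an alternative, holds a score per probe whose log base and centring are not settled here; limma is named in the submitters' processing notes. Probe positions are on rn4, per the file headers.

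Control and outlier spots were left out, log2(Cy5/Cy3) was centred on each array's median, and neighbouring probes were joined over gaps up to 500 bp. Runs of at least 3 probes, windows (the number of probes in a run divided by 5, rounded down) and windows minus their run's mean (runs of at least 10 probes) were fitted with limma 3.58.1 (lmFit, eBayes) in R 4.3.3 with the packages data.table (version 1.17.8) and jsonlite (version 2.0.0). A single fit held all 5 groups, Benjamini-Hochberg adjustment ran over all runs or windows, and the threshold was 0.05. The scripts were tested on simulated data. Neighbourhoods join wide runs under 20 kb apart.

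Named runs were those with most probes, extreme means, extreme spread or largest steps, and, per comparison, those with the smallest p and no overlap between sides, 2 in each direction (3 for the F test). Named windows were the 3 smallest p of each F test and 1 per direction. The chromosome 1 stretch, chr18:57663615-57664324 in its own run and windows beside named windows were chosen after their values were seen. The members and lists were chosen with earlier results of these data known. Replicate numbers did not pair samples (30 same-number pairs, mean correlation -0.05). Alternatives covered background correction, normalization, outlier spots, dim probes, probe length, medians, joining gap, window size, scans, the replicate number and each array; 2 filters on dim probes were added after seeing the data. The number of arrays limits precision.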

Additional observations from a re-analysis of the deposited data

How the results depend on the processing

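Counts below are of wide runs or their windows at a limma adjusted p under 0.05. For the 4 diabetic groups against control, 27 runs were called, and 11 with the authors' deposited value table, 5 with quantile normalization, 88 with loess, 42 without probes whose input was under background on any array, 8 with medians, 3 with the scan as a random block and 0 within scan day 1. Leaving out 1 array gave 1 (control replicate 3) to 55 (DR model replicate 2), with 15 without CaD replicate 2, other formula replicate 2 or 3, or LTF replicate 1, and 17 without LTF replicate 2. The F test called 3 runs, and 15 with normexp, 22 with loess, 6 with outlier spots kept, 7 and 13 with the stricter filters on dim input and on both channels, 1 with a gap of 300 bp, and 0 with quantile normalization, with centring within probe length and with the scan as a random block. Leaving out 1 array gave 0 to 26 (DR model replicate 3). Loess called 5 runs between the DR model and control, scan day 1 called 7 for the other formula, and the filters on dim input and on both channels called 1 and 2 for LTF. Leaving out 1 array gave 0 to 11 runs for CaD, 0 to 8 for the other formula and 0 to 11 for LTF, each highest without DR model replicate 3.

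The F test of windows called 138, and 341 with the authors' table, 385 with normexp, 366 with loess, 279 with the filter on both channels, 60 with medians, 84 with the shorter gap and 0 with the scan as a random block. Against their own run it called 134, and 572, 462, 288 and 345 in the first 4 of those settings, 225 with the stricter filter on dim input, 17 with medians, 87 with the shorter gap, 45 with windows of 8 probes and 0 with the scan block. Leaving out 1 array gave 29 to 501 and 30 to 481, lowest without CaD replicate 2 and highest without DR model replicate 3. The correlation of neighbouring probes, 0.453, was 0.838 in the authors' table and 0.314 within probe length, and 0.443 to 0.457 without 1 array. The share of variance between runs, 25.2%, was 35.4% in the authors' table, 19.7% with normexp and with loess, 19% with the filter on both channels, 12.2% within probe length, and 24.6% to 25.5% without 1 array. The causes of these moves were not tested.

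With the replicate number as a block, 16 runs were called for the diabetic groups and 0 by the F test, and the F tests called 25 windows and 54 against their own run. The numbers do not pair the samples: same-number pairs correlated at -0.42 to 0.33. With the scan as a fixed block, the difference between the other formula and the DR model at chr12:43528396-43532089 reversed from -0.18 to 0.0358. That block cannot estimate LTF or the diabetic mean, and the F test could not be fitted within scans. Dim probes limit low runs: 70.1% of probes in wide runs were above background in both channels on every array.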
